A study of Mus musculus with 18 samples.

Results

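Tgm2, Hdc, Vsir, Pdcd1, Il23a and Lipg are 6 mouse genes of immune signalling, histamine synthesis, protein cross-linking and lipid hydrolysis. They were chosen by name, for strong late or cumulus-biased levels seen earlier in the same libraries, and they are 6 of the 41325 entries of the count table. RNA was measured in cumulus cells, the somatic cells around the oocyte, and in mural granulosa cells of the follicle wall, in mice given human chorionic gonadotropin (hCG), a hormone that acts on the luteinizing hormone receptor and starts ovulation. The 6 groups, with 3 libraries each, were cumulus cells at 0, 4 and 12 h after hCG and mural granulosa cells at 0, 4 and 12 h after hCG. All came from the ovaries of wild-type mice, and the labels used here give no age, strain or pooling of animals. Levels are counts per M counts (CPM, M for mega) on scaled library totals, with the standard deviation (SD) over 3 libraries. Differences are log2 values ± standard error (SE).

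Of these genes, 4 matched a description as late cumulus genes. Pdcd1, Tgm2, Vsir and Lipg had their highest levels in cumulus cells at 12 h, in ranges that overlapped no other group. Il23a was instead highest in cumulus cells at 4 h. Hdc was high at 12 h in both cell types, with overlapping ranges. Because late and cumulus-biased levels chose the genes, levels at 12 h and differences between the cell types are given as a description with no test. The change from 0 to 4 h was tested in mural cells for all 6 genes, and in cumulus cells for the 4 genes whose level there at 4 h was not above that of mural cells. These tests use the same 0 h libraries as the late differences. The choice of the 4 genes used the cumulus libraries at 4 h that are also in the test, and it favours low levels there.

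PD-1 (Pdcd1) and VISTA (Vsir) are membrane receptors that dampen T cell responses, and PD-1 is engaged by the ligands PD-L1 and PD-L2. Interleukin-23 is a secreted pair of the p19 subunit, encoded by Il23a, and the p40 subunit, encoded by Il12b, and it acts through STAT3 in cells that carry its receptor. Histidine decarboxylase (Hdc) makes histamine, transglutaminase 2 (Tgm2) cross-links proteins, and endothelial lipase (Lipg) releases fatty acids from the phospholipids of high-density lipoprotein. During ovulation the cumulus cells build a hyaluronan-rich matrix around the oocyte, while mural cells begin to turn into the luteal cells that make progesterone from lipoprotein cholesterol.

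The 250 bases before the annotated start are shown for Pdcd1, Vsir and Hdc, which were nearly silent or low at 0 h and high at 12 h. Tgm2 and Lipg were also low in cumulus cells at 0 h and high at 12 h, and are not shown. The promoter set used held no entry for Tgm2 or Il23a, and Lipg was left out. They were taken from RefSeq (GRCm38.p6) and run 5′ to 3′ on the gene's strand. Capitals mark 2 short motifs on either strand, TGTTCT, a core of binding sites for progesterone and glucocorticoid receptors, and GGGCGG, the GC box bound by Sp1.
Pdcd1, chr1:94052554-94052803, minus strand: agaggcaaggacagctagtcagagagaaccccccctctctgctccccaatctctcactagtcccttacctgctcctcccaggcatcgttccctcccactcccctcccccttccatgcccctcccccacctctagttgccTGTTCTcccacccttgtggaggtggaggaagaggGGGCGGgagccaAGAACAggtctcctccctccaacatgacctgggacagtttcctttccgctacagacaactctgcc
Vsir, chr10:60346601-60346850, plus strand: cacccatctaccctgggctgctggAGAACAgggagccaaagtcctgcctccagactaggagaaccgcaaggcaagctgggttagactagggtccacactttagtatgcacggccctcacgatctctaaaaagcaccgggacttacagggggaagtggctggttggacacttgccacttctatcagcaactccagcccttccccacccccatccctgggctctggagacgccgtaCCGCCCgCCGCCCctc
Hdc, chr2:126618679-126618928, minus strand: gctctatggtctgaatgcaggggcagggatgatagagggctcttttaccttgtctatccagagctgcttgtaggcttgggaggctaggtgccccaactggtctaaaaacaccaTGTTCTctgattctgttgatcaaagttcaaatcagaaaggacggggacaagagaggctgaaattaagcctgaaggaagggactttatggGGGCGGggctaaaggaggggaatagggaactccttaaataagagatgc
The start used for Hdc lies inside the span that GENCODE M21 gives the gene. The Pdcd1 window held TGTTCT 111 to 106 bases before the start, its reverse complement AGAACA 65 to 60 bases before it, and 1 GC box 77 to 72 bases before it. In Vsir, AGAACA lay 226 to 221 bases before the start, and GC boxes lay 16 to 11 and 9 to 4 bases before it. Hdc held TGTTCT 137 to 132 bases and a GC box 48 to 43 bases before the start. Of 32851 promoter windows of 250 bases, 16.1% held TGTTCT and 32.7% held GGGCGG on either strand, and the marked matches do not overlap each other. No match was found in these 3 windows for TGACG (17.8% of all windows), TGANTCA (6.75%), TGTGGT (14.0%), AAGGTCA (4.08%), TTNNGNAA (36.8%) or TATAAA (12.4%). A match is a string of letters and no evidence of binding.

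Total counts ran from 32.2 M to 47.9 M per library, at which 3 counts corresponded to between 0.0585 and 0.0999 CPM. Libraries were grouped by title, since 8 of the 9 libraries titled as cumulus cells had the mural cell type among their characteristics and 1 had no cell type. At 0 h the summed level of 3 mural markers (Lhcgr, Cyp11a1, Nppc) was 30.8 to 74.3 CPM in cumulus libraries and 1450 to 1650 CPM in mural libraries. The cumulus markers Amh and Slc38a3 averaged 167 and 119 CPM in cumulus libraries at 0 h, against 164 and 146 CPM in mural libraries at 0 h, so the means of these cumulus markers did not set the cumulus libraries apart. The summed level of 13 oocyte markers was 306 to 1480 CPM in cumulus cells at 0 h, 850 to 5330 CPM at 4 h and 4.78 to 8.3 CPM at 12 h, and 99.4 to 466 CPM in mural cells. Replicate 3 of cumulus cells at 4 h held the highest oocyte sum, and replicate 1 at 0 h the highest share of mitochondrial transcripts (12.8%, lowest of all libraries 2.52%). No label says that libraries of a group came from separate animals, so the p-values rest on a spread between samples that may be technical. In these bulk samples, fewer cells of a type and less RNA per cell cannot be told apart.

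Pdcd1 (ENSMUSG00000026285, chr1:94038305-94052553, minus strand, GRCm38) had the largest late difference of the 6. Cumulus cells had 0.273, 0.06 and 0 CPM at 0 h, 9.18, 10.1 and 6.17 CPM at 4 h, and 292, 335 and 315 CPM at 12 h. Its mural levels were 0.254, 0.378 and 0.393 CPM at 0 h, 1.7, 1.52 and 2.44 CPM at 4 h, and 8.71, 6.64 and 7.32 CPM at 12 h. Cumulus libraries at 12 h stood above all others, and cumulus libraries at 4 h overlapped mural libraries at 12 h. Cumulus cells at 12 h exceeded those at 0 h by 11.56 ± 0.41 on the log2 scale, the 15th highest difference of 19941 genes, and mural cells at 12 h by 5.38 ± 0.28, the 11th highest. The 0 h baseline held 10, 3 and 0 counts in its 3 libraries. Without replicate 3 at 0 h the difference between 12 and 0 h was 10.96. Without replicate 1 at 0 h it was 13.12, and the ratio of cumulus cells at 12 h to the 3 counts of the remaining libraries was 9780, with a 95% counting interval of 3350 to 47400. At 4 h cumulus cells exceeded those at 0 h by 6.35 ± 0.41, which is described and not tested, and by 7.91 without that replicate.

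Vsir (ENSMUSG00000020101, chr10:60346851-60372684, plus strand, GRCm38) stayed low until 12 h. Cumulus cells had 0.71, 0.32 and 0.138 CPM at 0 h, 0.539, 0.182 and 0.167 CPM at 4 h, and 66.4, 77.7 and 87.3 CPM at 12 h. In mural libraries the levels were 0.312, 0.252 and 1.16 CPM at 0 h, 0.999, 1.05 and 2 CPM at 4 h, and 15.3, 23.7 and 21.9 CPM at 12 h. The ranges at 0 and 4 h overlapped in each cell type, and at 12 h every cumulus library was above every mural library. Cumulus cells at 12 h exceeded those at 4 h by 7.95 ± 0.59, the 12th highest difference of 19941 genes, and by 8.77 without replicate 1 of cumulus cells at 4 h. At 12 h cumulus cells exceeded mural cells by 1.92 ± 0.41. The gene lies within the span of Cdh23 on the opposite strand. Libraries came from a stranded kit, per the labels, but the strand setting of the counting is not stated in the sources at hand, so antisense reads could be shared. Cdh23 had at most 133 counts in any library, and 2.99, 3.05 and 3.28 CPM in cumulus cells at 12 h.

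Markers of immune cells were present at low levels in most groups, and their sums moved in different directions. The summed level of 5 leukocyte markers was 1.76 to 2.04 CPM in cumulus cells at 12 h and 2.92 to 3.88 CPM in those at 0 h, and Ptprc, the pan-leukocyte antigen CD45, averaged 0.316 CPM at 12 h. Of 12 T cell markers 10 had counts in cumulus cells at 12 h, with a sum of 14 to 16 CPM, against 5.87 to 7.45 CPM at 0 h. Most of the 12 h sum was Lck at 8.35 CPM and Trac at 6.06 CPM, while Cd3d and Cd3g of the T cell receptor complex were at 0 and Cd3e averaged 0.0088 CPM. In mural cells at 12 h the T cell sum was 11.7 to 12.6 CPM, with Cd2 at 5.5 CPM, Lck at 4.67 CPM and Cd3e at 0. The sum of 10 macrophage and dendritic cell markers was 20.4 to 27.0 CPM in cumulus cells at 12 h and 18.7 to 29.3 CPM in those at 0 h, and 39.9 to 46.8 CPM in mural cells at 12 h and 25 to 41.3 CPM in those at 0 h. The part of T cells, macrophages and dendritic cells in the levels of both receptors was not tested. At 4 h the T cell sum was 12.8 to 14.9 CPM in cumulus cells and 4.47 to 4.69 CPM in mural cells.

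Il23a (ENSMUSG00000025383, chr10:128296139-128298752, minus strand, GRCm38) was an early gene. Cumulus cells had 2.1, 1.44 and 2.5 CPM at 0 h, 101, 138 and 76.5 CPM at 4 h, and 10.1, 10 and 7.5 CPM at 12 h. Mural cells had 0.761, 1.11 and 0.743 CPM at 0 h, 3.83, 9.74 and 3.29 CPM at 4 h, and 3.06, 2.77 and 2.24 CPM at 12 h. Every cumulus library at 4 h was above all others, and the cumulus range at 12 h overlapped the mural range at 4 h. Cumulus cells at 12 h were below those at 4 h by a log2 difference of -3.51 ± 0.34, and above those at 0 h by 2.19 ± 0.35. The 4 h level exceeded that at 0 h by 5.71 ± 0.39 in cumulus cells and that of mural cells at 4 h by 4.23 ± 0.36, or by 4.86 without replicate 2 of mural cells at 4 h. Summed markers of macrophages and dendritic cells, which are known sources of interleukin-23, were 38.0 to 71.5 CPM in cumulus cells at 4 h and 18.7 to 29.3 CPM at 0 h, and 61.4 to 67.7 CPM in mural cells at 4 h. All 10 of these markers but Xcr1 had counts in cumulus cells at 4 h. The highest was Zbtb46, at 30.2 CPM against 8.35 CPM at 0 h, and Itgax, Mrc1, Csf1r and Flt3 also had higher means. Lyz2 (2.78 against 8.06 CPM), Adgre1 (0.708 against 0.881 CPM), Itgam (0.0185 against 0.164 CPM) and Xcr1 had lower means at 4 h. Cd68 was level (3.15 against 3.1 CPM). The part of macrophages and dendritic cells in the level of Il23a was not tested.

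Hdc (ENSMUSG00000027360, chr2:126593667-126619299, minus strand, GRCm38) moved in opposite directions in the 2 cell types at 4 h. In cumulus cells it had 7.54, 5.56 and 4.66 CPM at 0 h, 1.3, 1.12 and 1.53 CPM at 4 h, and 174, 160 and 147 CPM at 12 h. Its mural levels were 6.69, 7.15 and 7.01 CPM at 0 h, 25.5, 14 and 25.9 CPM at 4 h, and 156, 205 and 176 CPM at 12 h. All cumulus libraries at 4 h were below all at 0 h, all mural libraries at 4 h were above all at 0 h, and at 12 h the cell types overlapped. Hdc fell in cumulus cells at 4 h by 2.16 ± 0.24 on the log2 scale (edgeR's quasi-likelihood test, adjusted p = 7.27e-07) and rose in mural cells by 1.65 ± 0.20 (adjusted p = 3.21e-06). Hdc was kept for the cumulus test by its low level in the same 4 h libraries. That choice favours a fall, so the cumulus p-value cannot be taken at face value. At 12 h the level exceeded that at 0 h by 4.76 ± 0.23 in cumulus cells and by 4.68 ± 0.22 in mural cells. The summed level of 7 mast cell markers, the cells best known for histamine, was 0.264 to 0.473 CPM in cumulus cells and 0.309 to 0.548 CPM in mural cells at 12 h, with Tpsb2, Cma1, Ms4a2 and Fcer1a at 0 in cumulus cells and Mcpt4 and Fcer1a at 0 in mural cells. At 12 h 3 of the 7 markers had counts in cumulus cells and 5 in mural cells, with Cpa3 at 0.307 and 0.267 CPM. At 0 h the mast cell sum was 0.36 to 0.506 CPM in cumulus cells and 0.312 to 0.677 CPM in mural cells. The part of mast cells in the Hdc level was not tested.

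Tgm2 (ENSMUSG00000037820, chr2:158116402-158146436, minus strand, GRCm38) was close to silent in cumulus cells until 12 h. In cumulus cells it had 0.246, 0.34 and 0.391 CPM at 0 h, 0.359, 0.759 and 1.14 CPM at 4 h, and 294, 219 and 229 CPM at 12 h. In mural libraries the levels were 14.5, 10.7 and 19.4 CPM at 0 h, 10.2, 13.9 and 17.9 CPM at 4 h, and 61.8, 71.8 and 67.3 CPM at 12 h. Mural libraries were above cumulus libraries at 0 and 4 h, and below them at 12 h. The log2 difference between cumulus and mural cells was -5.48 ± 0.34 at 0 h, -4.25 ± 0.32 at 4 h and 1.88 ± 0.24 at 12 h. Cumulus cells at 12 h exceeded those at 0 h by 9.54 ± 0.37, the 39th highest difference of 19941 genes, and those at 4 h by 8.39 ± 0.35, the 8th highest. Tgm2 overlaps Rprd1b on the opposite strand, which had 26.6 to 50.4 CPM over all libraries, so antisense reads could be shared here too.

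Lipg (ENSMUSG00000053846, chr18:74939322-74961263, minus strand, GRCm38) climbed in steps. In cumulus cells it had 1.47, 1.4 and 0.552 CPM at 0 h, 55.2, 53.1 and 36 CPM at 4 h, and 272, 264 and 272 CPM at 12 h. Mural cells had 18, 34.8 and 38.2 CPM at 0 h, 54.6, 48.7 and 60.1 CPM at 4 h, and 132, 141 and 159 CPM at 12 h. Cumulus libraries were below mural libraries at 0 h, overlapped them at 4 h and were above them at 12 h. The log2 difference between cumulus and mural cells was -4.73 ± 0.31 at 0 h, -0.18 ± 0.25 at 4 h and 0.90 ± 0.25 at 12 h. Lipg rose in cumulus cells at 4 h by 5.40 ± 0.32 (edgeR adjusted p = 3.32e-10), and its 12 h level exceeded that at 4 h by 2.48 ± 0.26. Endothelial cells are the source for which the enzyme is named. The sum of 5 endothelial markers was 164 to 201 CPM in cumulus cells at 12 h and 9.45 to 16.7 CPM at 0 h, and 129 to 159 CPM in mural cells at 12 h. All 5 had counts in each group, and the part of these cells in the Lipg level was not tested. Most of the 12 h sum was Cdh5 (164 CPM in cumulus cells, 127 CPM in mural cells), which averaged 4.01 CPM in cumulus cells at 0 h. Kdr, a receptor for vascular endothelial growth factor, averaged 0.386, 3.15 and 20.6 CPM at 0, 4 and 12 h in cumulus cells. In mural cells Kdr averaged 7.67, 35.2 and 9.34 CPM at these times. The other markers, Pecam1, Tek and Emcn, had lower means at 12 h than at 0 h in cumulus cells. They averaged 7.69, 1.94 and 0.138 CPM at 0 h, 14.9, 3.94 and 0.07 CPM at 4 h, and 2.78, 0.49 and 0.0274 CPM at 12 h. In mural cells these 3 markers averaged 6.67, 2.22 and 1.57 CPM at 0 h, and 5.72, 1.25 and 1.05 CPM at 12 h. Oocyte markers were also low in cumulus cells at 12 h, and the part of oocyte RNA in Pecam1 and Tek was not tested.

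**Figure D1:**
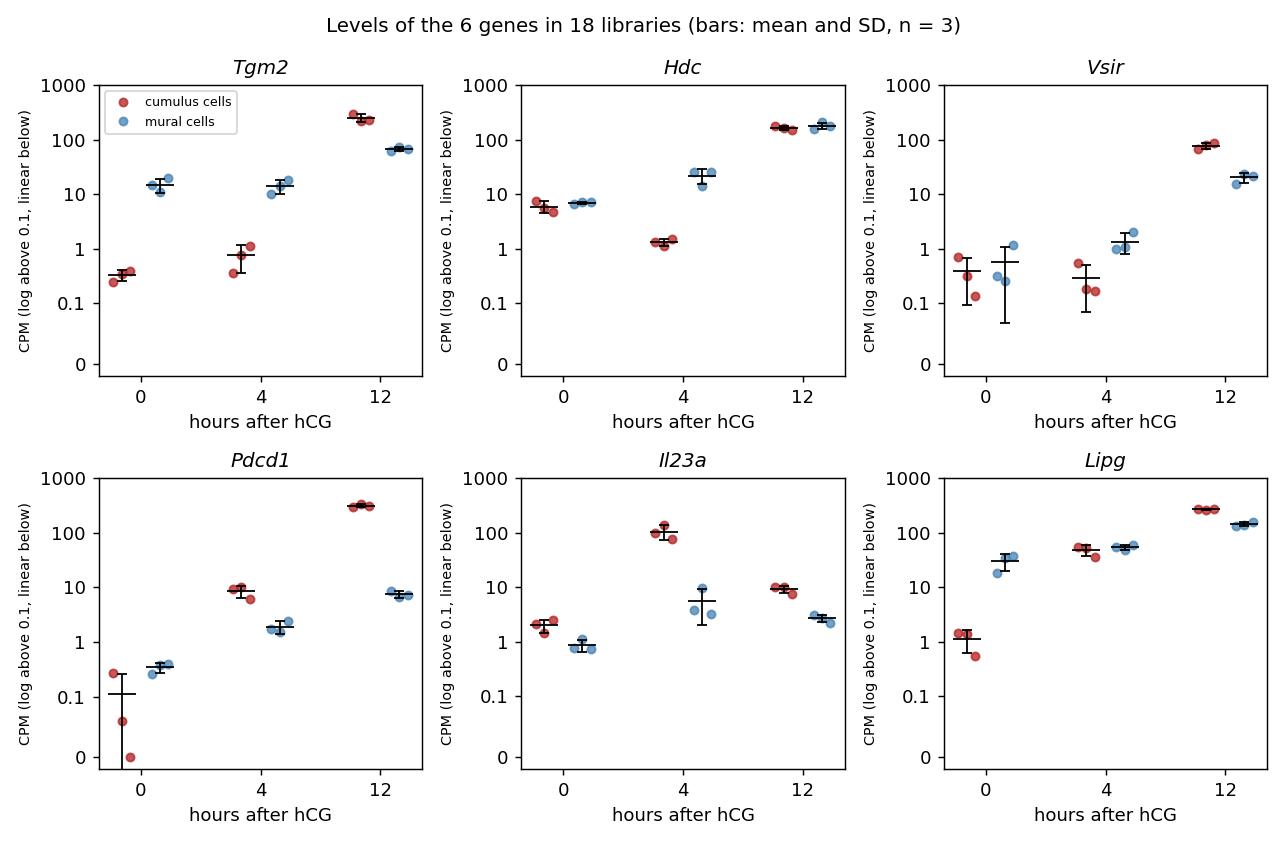
Levels of the 6 genes in each of the 18 libraries, in CPM on an axis that is logarithmic above 0.1 and linear below, against hours after hCG. Red points are cumulus libraries, blue points mural libraries, and black bars give the mean and SD of 3 libraries. Pdcd1, Tgm2, Vsir and Lipg peak in cumulus cells at 12 h, Il23a in cumulus cells at 4 h, and the Hdc ranges of the cell types overlap at 12 h.

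The early change was tested at 4 h against 0 h. In cumulus cells 2 of the 4 genes tested rose, 1 fell and 1 was not called. Of all 19941 genes tested, 25% were called higher and 22.8% lower. The 4 genes were kept by their level in the same cumulus libraries at 4 h, which left out Pdcd1 (6.35) and Il23a (5.71). This tally therefore cannot be weighed against the shares of all genes. Besides Lipg and Hdc, Tgm2 rose by 1.15 ± 0.43 (edgeR's quasi-likelihood test, adjusted p = 0.035). That call rested on 9 to 17 counts at 0 h and was lost without replicate 3 of cumulus cells at 4 h (0.69, adjusted p = 0.409). It was also lost without any 1 of the 3 cumulus libraries at 0 h, replicate 2 of cumulus cells at 4 h, replicate 1 of mural cells at 0 h or replicate 3 of mural cells at 12 h, with adjusted p between 0.0558 and 0.125, and with library totals (1.0, adjusted p = 0.0831). Replicate 3 of cumulus cells at 4 h, which held the most oocyte RNA, had the lowest Pdcd1, Il23a and Lipg of its group and the highest Tgm2. Vsir had a difference of -0.28 ± 0.65 in cumulus cells (adjusted p = 0.743).

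In mural cells 4 of the 6 genes rose at 4 h and none fell, where 22.8% of all genes were called higher and 22.3% lower. Il23a rose by 2.70 ± 0.37 (edgeR adjusted p = 1.25e-05), or by 2.05 without replicate 2 at 4 h, and Pdcd1 by 2.48 ± 0.37 (adjusted p = 2.8e-05), although both stayed far below their cumulus peaks. Hdc, given above, and Lipg at 0.84 ± 0.25 (adjusted p = 0.00999) were the others. With library totals in place of scaled totals, the median of all genes in this comparison was -0.38 in place of -0.06, and Lipg was 0.51 with an adjusted p of 0.134. Without replicate 1 at 0 h, Lipg was 0.53 with an adjusted p of 0.0749, and without replicate 3 at 4 h it was 0.69 with an adjusted p of 0.089. Vsir had a difference of 1.23 ± 0.52 (adjusted p = 0.0639), which was 2.22 with an adjusted p of 0.00289 when replicate 3 at 0 h was left out. Tgm2 had a difference of -0.09 ± 0.24 (adjusted p = 0.803). All 6 genes had passed the filter on low counts, which they could do through the group where they are high.

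The level of each gene was also higher in mural cells at 12 h than at 0 h. The log2 difference between 12 and 0 h in mural cells was 5.13 ± 0.51 for Vsir, 4.68 ± 0.22 for Hdc, 4.47 ± 0.34 for Pdcd1, 2.25 ± 0.26 for Lipg, 2.17 ± 0.25 for Tgm2 and 1.63 ± 0.38 for Il23a. The Vsir value was 6.16 without replicate 3 at 0 h. In every one of these genes the 3 mural libraries at 12 h were above the 3 at 0 h. At 12 h the cell types differed most in Pdcd1, for which the log2 difference between cumulus and mural cells was -1.71 ± 0.59 at 0 h, 2.16 ± 0.28 at 4 h and 5.38 ± 0.28 at 12 h. The value at 0 h rests on very few counts and was -3.28 without replicate 1 and -1.12 without replicate 3 of cumulus cells at 0 h. For Hdc it was -0.24 ± 0.20, -4.04 ± 0.24 and -0.16 ± 0.19 at these times, and the ranges of the cell types overlapped at 0 and 12 h and not at 4 h. For Vsir it was -0.61 ± 0.58, -2.12 ± 0.58 and 1.92 ± 0.41. The 0 h value of Vsir turned to 0.43 without replicate 3 of mural cells at 0 h, and its 4 h value was -2.94 without replicate 1 of cumulus cells at 4 h. For Il23a the difference was 1.21 ± 0.38, 4.23 ± 0.36 and 1.77 ± 0.34.

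**Figure D2:**
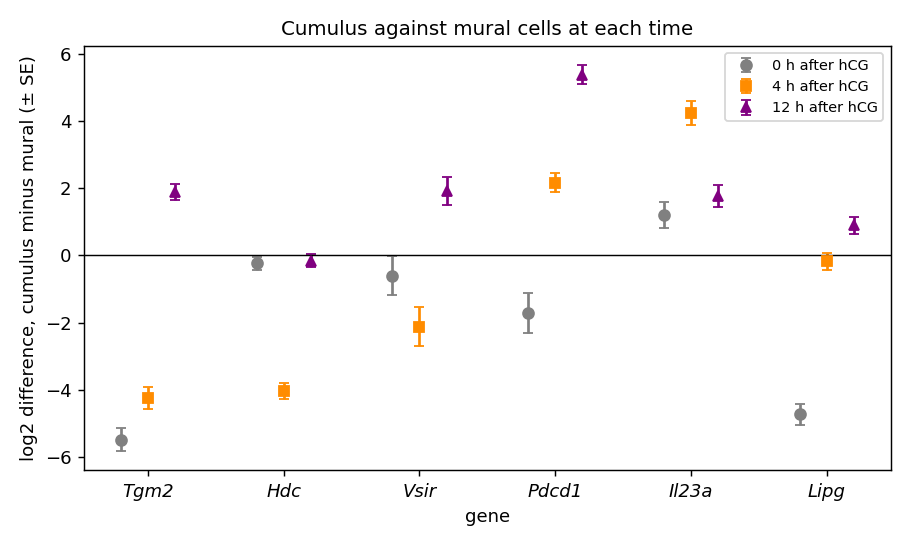
Log2 difference between cumulus and mural cells for each gene at 0, 4 and 12 h after hCG, with SE. Points above the line at 0 are higher in cumulus cells. Tgm2 and Lipg lie below the line at 0 h and above it at 12 h, Hdc is far below it only at 4 h, and Il23a is above it at each time.

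Divided by exon length, so that genes can be set beside each other, Pdcd1 was the most abundant of the 6 in cumulus cells at 12 h, at 163 CPM per kilobase of exon. Lipg (57.1 CPM per kilobase) and Tgm2 (53.6 CPM per kilobase) followed, then Hdc (25.1), Vsir (15.4) and Il23a (4.1), in the same unit. In mural cells at 12 h the highest were Lipg at 30.6 and Hdc at 28.0 CPM per kilobase, and Pdcd1 stood at 3.92 CPM per kilobase. In cumulus cells at 4 h Il23a was the highest at 46.8 CPM per kilobase, ahead of Lipg at 10.2 and Pdcd1 at 4.39 CPM per kilobase. The mRNA of the 3 other genes was at most 0.206 CPM per kilobase there. Exon lengths came from GENCODE M21, which may not be the annotation used for counting.

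**Figure D3:**
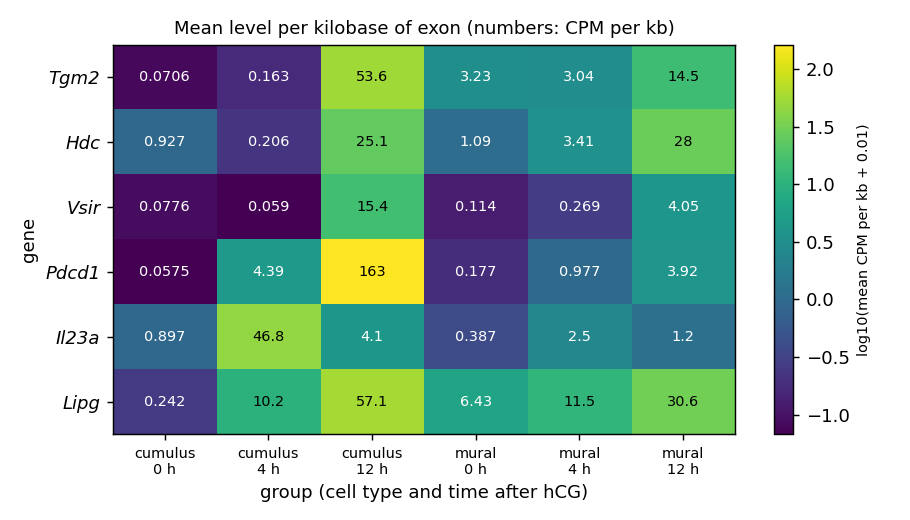
Mean level per kilobase of exon for each gene (rows) in each group (columns), with the colour on a log10 scale and the value in CPM per kilobase printed in each cell. The largest value is Pdcd1 in cumulus cells at 12 h, and the pair of cells at 4 h shows Il23a at 46.8 in cumulus cells and 2.5 in mural cells.

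The genes closest to each member in pattern were found by the root mean square (RMS) difference of log2 CPM over the 6 group means, each gene centred on its own mean, among 12120 genes with at least 5 CPM in their highest group. Pdcd1 was closest to Fabp7 (0.93), a fatty acid binding protein, Olr1 (1.02), a receptor for oxidised low-density lipoprotein, and Il33 (1.03), a cytokine of the interleukin-1 family. Olr1 averaged 0.0287, 11.8 and 153 CPM at 0, 4 and 12 h in cumulus cells, and 0.0168, 2.19 and 7.17 CPM in mural cells. Il23a was closest to Has2os (0.79), a transcript antisense to the hyaluronan synthase gene Has2, Gfra1 (0.81), a receptor for glial cell line-derived neurotrophic factor, and Aqp3 (0.81), a water and glycerol channel. Gfra1 averaged 4.36, 71.4 and 13.7 CPM at these times in cumulus cells, and 0.93, 22.0 and 3.4 CPM in mural cells. Lipg was closest to Ace (0.62), the angiotensin-converting enzyme, Fblim1 (0.68) and Hspb8 (0.7), a small heat shock protein.

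Tgm2 was closest to Cnn2 (0.89), an actin-binding calponin, Thbd (0.94), the thrombin receptor thrombomodulin, and Ahnak2 (1.02). Hdc was closest to Podnl1 (0.68), Kcnj16 (0.82), a potassium channel subunit, and Dpep2_1 (0.83). Vsir was closest to Olfr810 (0.58), an olfactory receptor gene, Pik3c2g (0.85) and Mbp (0.87), myelin basic protein. These log2 CPM used a prior count of 2, a small number added to counts before the logarithm. Olfr810 averaged 0 and 0.0101 CPM in cumulus cells at 0 and 4 h and 0.00651 CPM in mural cells at 0 h. Distances of genes near 0 in some groups, also Fabp7 and Olr1, depend on that setting. Between the members themselves the smallest RMS difference was that of Hdc and Vsir (1.08), and Il23a was 2.79 to 4.36 from each of the others.

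Genes that act with the 6 members were followed on 5 lists of 86 genes, of which 66 passed the filter on low counts. The lists were chosen with earlier results of these data known. The counts and medians below, also those of each list, therefore describe the lists and are no independent test of them. In cumulus cells at 12 h against 0 h, 35 of the 66 rose and 13 fell, where 31.2% of all genes were called higher and 32.9% lower. The median log2 difference was 0.90 over the lists and -0.09 over all genes. In mural cells at 12 h against 0 h, 31 rose and 5 fell, where 21.6% of all genes were called higher and 19.0% lower, with medians of 0.70 and -0.05. Cumulus cells at 12 h were higher than mural cells for 14 of the 66 genes and lower for 16, where 18% of all genes were called higher and 20.5% lower. With library totals the share of calls that were higher was 38.1% in place of 48.7% in cumulus cells and 39.9% in place of 53.2% in mural cells for 12 against 0 h, and 35.6% in place of 46.7% between the cell types. The medians of all genes then moved to -0.34, -0.22 and -0.19. The change from 0 to 12 h differed between the cell types for 27 of the 66 genes, where 40.1% of all genes were called, and the change from 0 to 4 h for 20 of them, where 14.0% of all genes were called. These 20 became 12 without replicate 1 or 2 of mural cells at 0 h or replicate 2 or 3 of mural cells at 4 h, and 13 without replicate 3 of cumulus cells at 0 h. The count over all genes was 4272 in place of 2800 without replicate 2 of cumulus cells at 4 h.

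Among 24 checkpoint receptors and ligands, 20 were tested. In cumulus cells at 12 h against 0 h 8 rose and 3 fell, and in mural cells at these times 10 rose and none fell. The shares of all genes called higher and lower were 31.2% and 32.9% in cumulus cells, and 21.6% and 19.0% in mural cells. The ligands of PD-1 stayed low. Cd274, which encodes PD-L1, had 1.27, 1.2 and 0.792 CPM in cumulus cells at 12 h and 0.546, 0.34 and 0.437 CPM in those at 0 h, a difference of 1.30 ± 0.56 that missed the threshold (edgeR adjusted p = 0.0511). In mural cells its means were 0.934 ± 0.277 CPM at 12 h and 0.971 ± 0.0759 CPM at 0 h (SD, n = 3 each). Pdcd1lg2, which encodes PD-L2, had at most 9 counts in any library and was not tested.

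Igsf11, the adhesion protein VSIG3 and a reported ligand of VISTA, was high throughout. It averaged 164 ± 19.2, 309 ± 65.2 and 179 ± 9.11 CPM at 0, 4 and 12 h in cumulus cells, and 128 ± 15.1, 198 ± 30.7 and 177 ± 12.1 CPM in mural cells (SD, n = 3 each). It rose at 4 h against 0 h by 0.91 ± 0.15 in cumulus cells (edgeR adjusted p = 5.67e-05) and by 0.63 ± 0.15 in mural cells (adjusted p = 0.00185). Selplg, the selectin ligand PSGL-1 that also binds VISTA, averaged at most 1.08 CPM in any group.

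Tigit, another inhibitory receptor, averaged 5.12 CPM in cumulus cells at 12 h and 0.197 CPM at 0 h, a rise of 4.67 ± 0.53 (edgeR adjusted p = 4.92e-07). In mural cells it averaged 1.31 CPM at 12 h and 0.104 CPM at 0 h, a rise of 3.63 ± 0.55 (adjusted p = 3.31e-05) that was 4.5 without replicate 3 at 0 h, and cumulus cells at 12 h exceeded mural cells by 1.96 ± 0.45 (adjusted p = 0.00199). At 4 h Tigit had 2.78, 4.7 and 1.86 CPM in cumulus cells and 2.16, 4.03 and 3.47 CPM in mural cells, in overlapping ranges. Every mural library at 4 h was above every mural library at 12 h. The Tigit ligand Nectin2 averaged 69.0 CPM in cumulus cells and 166 CPM in mural cells at 12 h. Icosl, the ligand of the costimulatory receptor ICOS, fell in cumulus cells at 12 h against 0 h by 3.06 ± 0.26 (adjusted p = 1.75e-08), to 8.76 CPM at 12 h against 73.4 CPM at 0 h. In mural cells its difference was -0.30 ± 0.24 (adjusted p = 0.355). Cd160 averaged 0.376 CPM in cumulus cells at 12 h and 7.16 CPM at 0 h, a fall of 4.24 ± 0.65 (adjusted p = 1.98e-05), and oocyte markers fell alongside it over these libraries. The part of oocyte RNA in Cd160 was not tested.

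Of 17 genes of the IL-12 family and its signalling, 13 were tested. In cumulus cells at 4 h against 0 h, when Il23a peaked, 6 rose and 2 fell, where 25% of all genes were called higher and 22.8% lower. In mural cells 3 rose and 2 fell, near the 22.8% and 22.3% of all genes called higher and lower. The partner subunit of Il23a was almost absent. Il12b had 2, 3 and 8 counts in cumulus cells at 4 h (0.0449, 0.0911 and 0.222 CPM), no counts in those at 0 h and 5, 4 and 4 counts in those at 12 h. In mural libraries it had at most 2 counts. Il12a, which pairs with Il12b to form interleukin-12, had at most 4 counts in any library, and neither gene passed the filter on low counts.

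The receptor genes were low as well. Il23r had 0.786, 0.546 and 3.59 CPM in cumulus cells at 4 h and 0, 0.76 and 0.873 CPM in those at 0 h, with the highest value in the library that held the most oocyte RNA. The part of oocyte RNA in the Il23r level was not tested. Il12rb1, the subunit shared by the interleukin-12 and interleukin-23 receptors, averaged 0.204 ± 0.038 CPM in cumulus cells at 4 h and 0.984 ± 0.231 CPM at 0 h (SD, n = 3 each), a fall of 2.26 ± 0.37 on the log2 scale (edgeR adjusted p = 6.5e-05). In mural cells at 12 h it averaged 2.9 ± 0.227 CPM, against 0.751 ± 0.245 CPM at 0 h, a rise of 1.95 ± 0.33 (adjusted p = 0.000112).

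Downstream, Stat3 averaged 65.2, 191 and 383 CPM in cumulus cells at 0, 4 and 12 h, and 85.3, 167 and 308 CPM in mural cells. It rose at 4 h by 1.55 ± 0.09 in cumulus cells (edgeR adjusted p = 2.27e-10) and by 0.97 ± 0.09 in mural cells (adjusted p = 8.69e-08). In cumulus cells at 12 h against 0 h, Il17f fell by 4.85 ± 1.13 (adjusted p = 0.00118) and Stat4 fell by 3.04 ± 0.66 (adjusted p = 0.000661), as did the oocyte markers, whose part was not tested. Without replicate 2 at 12 h these differences were -5.85 for Il17f and -3.82 for Stat4. At 12 h Il17f averaged 0.113 CPM and Stat4 0.409 CPM in cumulus cells.

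**Figure D4:**
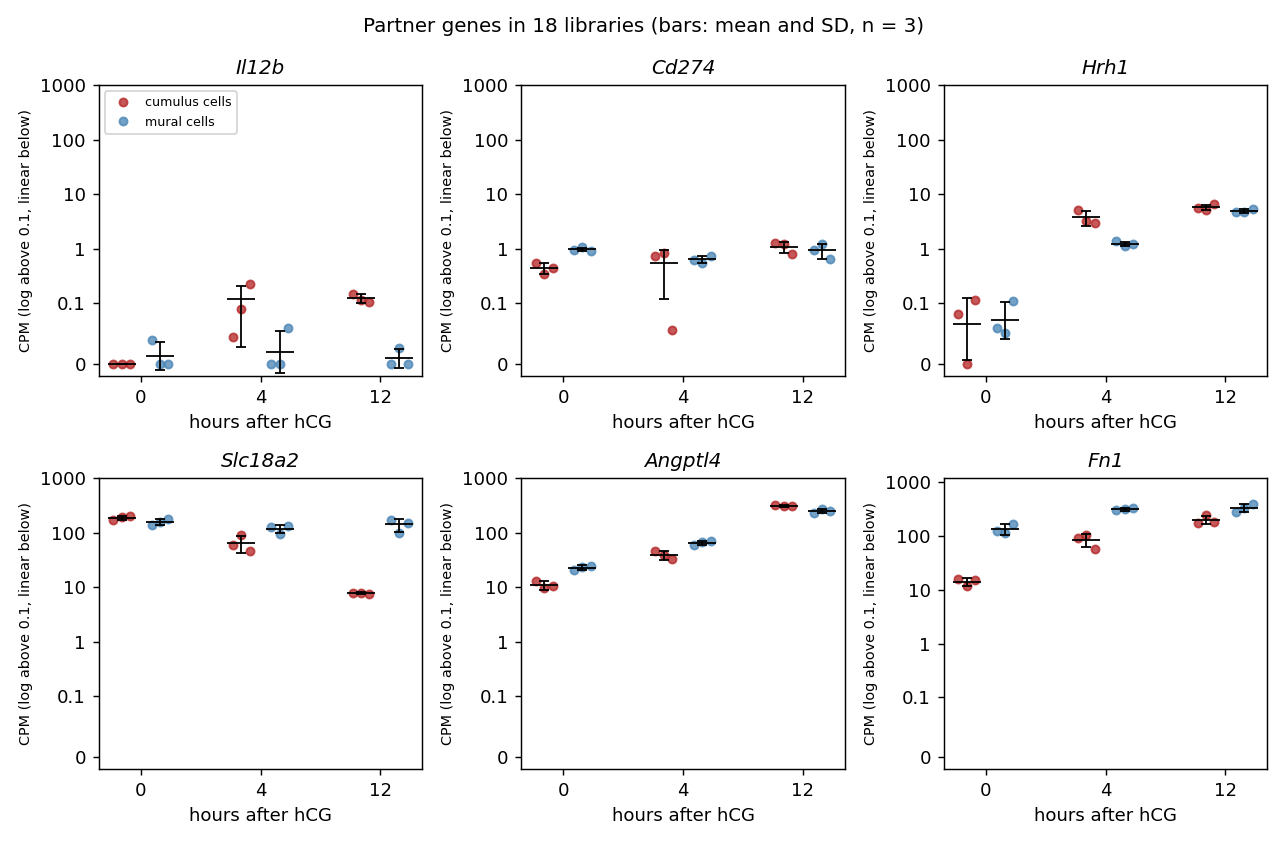
Levels of 6 partner genes in each library, in CPM on an axis that is logarithmic above 0.1 and linear below, against hours after hCG. Red points are cumulus libraries, blue points mural libraries, and black bars give the mean and SD of 3 libraries. Il12b and Cd274 stay near or below 1 CPM, Hrh1 is high at 4 and 12 h, Slc18a2 drops in cumulus cells, Angptl4 is highest at 12 h in both cell types, and Fn1 is highest at 12 h in cumulus cells and overlaps between 4 and 12 h in mural cells.

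Of 10 genes of histamine handling, 6 were tested. In cumulus cells at 12 h against 0 h 2 rose and 3 fell, with a median of -2.06. In mural cells 2 rose and none fell, with a median of 0.24. Among all genes, 31.2% were called higher and 32.9% lower in cumulus cells, and 21.6% and 19.0% in mural cells. Hrh1, the H1 histamine receptor, had 5.59, 5.16 and 6.5 CPM in cumulus cells at 12 h and 0.0819, 0 and 0.115 CPM in those at 0 h. Its mural levels were 4.63, 4.77 and 5.43 CPM at 12 h and 0.0585, 0.0504 and 0.109 CPM at 0 h. The rise was 6.45 ± 0.52 in cumulus cells (edgeR adjusted p = 5.54e-09) and 6.02 ± 0.50 in mural cells (adjusted p = 2.03e-08), from at most 5 counts in any library at 0 h. In cumulus cells the rise was 5.78 without replicate 2 at 0 h and 7.19 without replicate 3 at 0 h. It was already present at 4 h, with a rise of 5.84 ± 0.51 in cumulus cells (adjusted p = 3.86e-08) and 4.02 ± 0.50 in mural cells (adjusted p = 3.21e-06). Leaving out the same cumulus libraries gave 5.21 and 6.61 for this cumulus rise.

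Slc18a2, the vesicular transporter that packs histamine and other monoamines, went the other way in cumulus cells. It had 7.95, 8.03 and 7.45 CPM in cumulus cells at 12 h and 172, 194 and 199 CPM in those at 0 h, with no overlap. In mural libraries the levels were 172, 101 and 153 CPM at 12 h and 136, 158 and 175 CPM at 0 h, which overlapped. It fell in cumulus cells by 4.59 ± 0.25 (edgeR adjusted p = 4.26e-11), and its difference in mural cells was -0.14 ± 0.21 (adjusted p = 0.657). The difference between these changes was -4.45 ± 0.32 (adjusted p = 1.84e-08). Hnmt, which inactivates histamine by methylation, had 0.177, 0.0586 and 0.185 CPM in cumulus cells at 12 h and 1.75, 1.84 and 1.08 CPM in those at 0 h, a fall of 3.43 ± 0.58 (adjusted p = 5.1e-05). Its highest level, 4.28 CPM, was in the cumulus library with the most oocyte RNA, replicate 3 at 4 h, and the oocyte markers fell alongside it at 12 h. The part of oocyte RNA in Hnmt was not tested. Aoc1, the other histamine-degrading enzyme, and Hrh2 did not pass the filter on low counts.

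Of 13 transglutaminases and their partners, 10 were tested. At 12 h against 0 h 4 rose and 3 fell in cumulus cells, and in mural cells 3 rose and 2 fell. These counts were near the shares of all genes, which were 31.2% higher and 32.9% lower in cumulus cells and 21.6% and 19.0% in mural cells. Tgm1, a transglutaminase best known from skin, had no counts in cumulus cells at 0 h. Its mean of 2.66 CPM at 12 h was at least 115-fold higher than the limit of 3 counts over that group. Its highest levels were in mural cells at 4 h, with 3.53, 7.42 and 6.2 CPM. Mural cells had 2.25, 2.03 and 1.89 CPM at 12 h, and 0.039, 0.0504 and 0.393 CPM at 0 h. Fibronectin (Fn1), a substrate and binding partner of transglutaminase 2, had 176, 239 and 183 CPM in cumulus cells at 12 h and 15.5, 11.6 and 15.4 CPM in those at 0 h, a rise of 3.81 ± 0.22 (edgeR adjusted p = 1.03e-10). Mural cells had 280, 328 and 392 CPM at 12 h and 124, 112 and 167 CPM at 0 h.

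Sdc4, the heparan sulphate proteoglycan syndecan-4, averaged 510 ± 34.2 CPM in cumulus cells at 12 h and 38.0 ± 4.07 CPM at 0 h, and 758 ± 2.57 CPM in mural cells at 12 h and 47.5 ± 2.09 CPM at 0 h (SD, n = 3 each). It rose by 3.75 ± 0.16 in cumulus cells (edgeR adjusted p = 1.32e-12) and by 3.99 ± 0.16 in mural cells (adjusted p = 2.18e-12). Adgrg1, the adhesion receptor GPR56 that binds transglutaminase 2, averaged 266, 84.3 and 41.8 CPM at 0, 4 and 12 h in cumulus cells. In mural cells it averaged 606, 158 and 123 CPM. Its mean was lowest at 12 h in each cell type, where Tgm2 was highest. Its mural ranges at 4 h (132 to 182 CPM) and 12 h (94.3 to 142 CPM) overlapped. Adgrg1 was already lower in mural cells at 4 h than at 0 h, while the mural Tgm2 ranges at these times overlapped. F13a1, the plasma transglutaminase subunit, averaged at most 2.57 CPM in any group.

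Of 22 lipases and genes of lipoprotein handling, 17 were tested. At 12 h against 0 h 13 rose and 1 fell in cumulus cells, with a median of 1.53. In mural cells 11 rose and 3 fell, with a median of 0.91. Of all genes, 31.2% were called higher and 32.9% lower in cumulus cells, and 21.6% and 19.0% in mural cells. Angptl4, a secreted inhibitor of lipoprotein lipase and endothelial lipase, had 320, 303 and 303 CPM in cumulus cells at 12 h and 13.3, 9.56 and 10.4 CPM in those at 0 h. Its mural levels were 230, 276 and 253 CPM at 12 h and 20.8, 23.6 and 24.8 CPM at 0 h. It rose by 4.81 ± 0.16 in cumulus cells (edgeR adjusted p = 9.15e-14) and by 3.45 ± 0.15 in mural cells (adjusted p = 4.57e-12).

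Lpl, lipoprotein lipase, averaged 83.0, 73.4 and 108 CPM at 0, 4 and 12 h in cumulus cells, and 52.0, 76.6 and 66.1 CPM in mural cells. Its rise at 12 h against 0 h in cumulus cells was 0.39 ± 0.14 (edgeR adjusted p = 0.0194), which was 0.14 with an adjusted p of 0.328 with library totals. The call was also lost without replicate 2 or 3 of cumulus cells at 0 h, replicate 1 of cumulus cells at 12 h, replicate 1 or 3 of mural cells at 4 h or replicate 3 of mural cells at 12 h, with differences of 0.27 to 0.31. Lipc, hepatic lipase, averaged at most 0.498 CPM in any group. Pcsk5, a proprotein convertase known to cleave endothelial lipase, averaged 64.8, 635 and 2050 CPM at these times in cumulus cells, and 70.8, 1310 and 651 CPM in mural cells. It rose at 12 h against 0 h by 4.98 ± 0.19 in cumulus cells (edgeR adjusted p = 4.09e-13) and by 3.20 ± 0.18 in mural cells (adjusted p = 8.63e-11).

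Scarb1, the receptor that takes up cholesterol esters from high-density lipoprotein, had 1110, 1040 and 1080 CPM in cumulus cells at 12 h and 405, 320 and 345 CPM in those at 0 h. In mural libraries the levels were 2030, 2480 and 2130 CPM at 4 h and 580, 619 and 547 CPM at 0 h, and all 3 mural libraries at 12 h, at 1330 to 1440 CPM, were below those at 4 h. Scarb1 rose at 12 h against 0 h by 1.59 ± 0.15 in cumulus cells (edgeR adjusted p = 3.21e-08), and at 4 h against 0 h by 1.93 ± 0.15 in mural cells (adjusted p = 7.28e-09). Mgll, which splits monoacylglycerols, averaged 0.0924, 1.34 and 12.5 CPM at 0, 4 and 12 h in cumulus cells, and 2.69, 4.08 and 5.05 CPM in mural cells. It rose at 12 h against 0 h by 7.12 ± 0.52 in cumulus cells (edgeR adjusted p = 1.68e-09), and its difference in mural cells was 0.91 ± 0.37 (adjusted p = 0.0577). The difference between these changes was 6.21 ± 0.63 (adjusted p = 7.05e-07). Without replicate 1 of cumulus cells at 0 h, the cumulus rise was 8.09 and the difference between the changes 7.18.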

How the data were processed

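RNA was measured in 18 libraries, 3 in each of 6 groups taken from the titles. Values were the deposited whole-number counts of uniquely mapped reads per gene. The authors aligned and counted reads in CLC Genomics Workbench with default parameters, per the series' design text, from libraries enriched for polyadenylated RNA. The submitters' processing notes name GRCm38. The sources used here give no software version, annotation or strand setting. Of the names, 40826 occurred in GENCODE M21, which gave positions and exon lengths.

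The analysis used edgeR 4.0.16 and limma 3.58.1 in R 4.3.3, with DESeq2 1.42.0 as an alternative. The edgeR filter (minimum count 10) left 19941 of 41325 entries holding 99.964% of the counts. Scaling was by trimmed mean of M values (TMM, factors 0.849 to 1.18). One quasi-likelihood model with a mean for each group was fitted to all libraries, with Benjamini-Hochberg adjustment over all genes tested and a threshold of 0.05. The procedure was tested on simulated data. Libraries held 32.2 M to 47.9 M counts, and the floors and intervals given cover only counting error, reads not being independent molecules. Within each group, every pair of libraries differed by more than counting error (chi-square per degree of freedom from 7.81 to 246.72, highest in cumulus cells at 4 h).

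The 6 genes, the 5 partner lists, the markers and the tests were chosen with earlier results of these data known. Named partners were, per list and comparison, the 2 called genes with the largest change among those with at least 1 CPM in the higher group, plus genes that act directly on a member. Some genes on these lists are not reported here. Pattern neighbours were the 3 closest genes per member with at least 5 CPM in the highest group, leaving out predicted names. Tests of Pdcd1 and Il23a in cumulus cells at 4 h had been planned. They were left out because both were higher there than in mural cells, which is the bias that chose them. Promoter windows were matched by symbol to RefSeq. Alternatives were other scalings, no filter, a replicate block, DESeq2, leaving out each library, and leaving out 2 doubted libraries together.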

Additional observations from a re-analysis of the deposited data

Results flagged for a closer look

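Several partner genes changed differently in cumulus and mural cells, by edgeR's test of the difference between the cell types' changes. For 12 h against 0 h, 27 of the 66 partner genes tested were called, near the 40.1% of all genes called. Such differences at 12 h are thus no trait of the partner genes. Values are log2 changes in cumulus cells minus those in mural cells, and all partners below passed the threshold of 0.05 with all libraries. For 12 h against 0 h, the change was higher in cumulus cells for Mgll (6.21), Fn1 (2.51), Pcsk6 (2.37) and Angptl4 (1.35). Tgm1 stood at 6.04, which depends on the fit because cumulus libraries at 0 h had no counts of it, and was 4.2 without replicate 3 of mural cells at 0 h. The change was lower in cumulus cells for Slc22a3 (-4.51), Slc18a2 (-4.45), Il17f (-4.01), Cd160 (-3.73), Icosl (-2.76), Stat4 (-2.75), Tgm6 (-2.65), Hnmt (-2.44) and Il12rb1 (-1.47). Of the 24 alternatives, 11 ended the call of Il17f (library totals, adjusted p = 0.0508; no filter on low counts, adjusted p = 0.112; and 9 of those with 1 library left out), 7 that of Slc22a3, 6 that of Tgm6 and 5 that of Stat4, each of these last with 1 library left out. Slc22a3 was -3.22 (adjusted p = 0.116) without replicate 2 of cumulus cells at 0 h and -3.62 (adjusted p = 0.145) without replicate 1 of mural cells at 12 h. Tgm6 was -2.06 (adjusted p = 0.098) without replicate 3 of cumulus cells at 0 h. Slc22a3, Il17f, Stat4, Cd160 and Hnmt had their highest level in replicate 3 of cumulus cells at 4 h, which held the most oocyte RNA, and were low at 12 h in cumulus cells, as oocyte markers were. Slc22a3 had 2.78 CPM in that library and at most 0.0293 CPM in cumulus cells at 12 h. The part of oocyte RNA in these genes was not tested.

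For 4 h against 0 h, 20 of the 66 partner genes were called, or as few as 12 with 1 library left out, where 14.0% of all genes were called. The change was higher in cumulus cells for Mgll (3.29), Hnmt (2.21), Il27ra (2.08), Fn1 (1.36) and Pcsk6 (1.15). Without replicate 3 of cumulus cells at 4 h, Hnmt was 1.39 (adjusted p = 0.0915) and Il27ra 1.48 (adjusted p = 0.0302). That library held the most oocyte RNA and, among cumulus libraries, the highest Hnmt (4.28 CPM) and Il27ra (2.11 CPM), and the part of oocyte RNA was not tested. The call of Hnmt was lost in 9 of 24 alternatives, with the replicate block among them (adjusted p = 0.0502). Mgll was 4.25 without replicate 1 of cumulus cells at 0 h. The change was lower for Selplg (-3.03), Lgals9 (-1.86), Slc29a4 (-1.62), Il12rb1 (-1.57), Slc18a2 (-1.13), Lpl (-0.74) and Scarb1 (-0.73). The call was lost in 21 of 24 alternatives for Slc29a4 (adjusted p = 0.0516 with the replicate block), 18 for Il12rb1, 12 for Selplg, 9 for Slc18a2, 4 for Scarb1 and 1 for Lpl, with the direction kept in each. Without replicate 2 of cumulus cells at 4 h Slc29a4 was -2.33 (adjusted p = 0.00181). For Hdc the difference was -3.81, with every cumulus library at 4 h below those at 0 h and every mural library above, and this difference was not tested because the gene was chosen for its levels.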

How the results depend on the processing

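Each result was recomputed under 24 alternatives. Of the 4 h tests, Hdc, Pdcd1, Il23a and the rise of Lipg in cumulus cells kept direction and call in every one. Members called ranged from 2 to 3 in cumulus cells and from 3 to 5 in mural cells. Reversed values were those of Vsir in cumulus cells at 4 h (0.7 without the 2 doubted libraries, 0.4 without cumulus 0 h replicate 1, 0.03 without cumulus 4 h replicate 3; range with 1 library left out -1.1 to 0.4) and of Tgm2 in mural cells at 4 h (0.13 without mural 0 h replicate 3, 0.04 without mural 4 h replicate 1; range -0.38 to 0.13). The difference between cumulus and mural cells turned to 0.43 for Vsir at 0 h without mural 0 h replicate 3 (range from -1.3), and to 0.06 for Lipg at 4 h without cumulus 4 h replicate 3. The cause was not tested.

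Pathway genes called between cumulus and mural cells at 0 h were 41 in place of 26 without the 2 doubted libraries (cumulus 0 h replicate 1 and cumulus 4 h replicate 3), and 20 to 32 with 1 library left out. With 1 library left out, pathway genes that differed between the cell types' changes at 4 h ranged from 12 to 21, and all such genes from 2037 to 4272. Of 165 called values of partner genes, 32 lost the call in at least 1 alternative and 0 reversed. Whether replicate numbers pair the samples was not settled. Correlations of same-numbered libraries of different groups ran from -0.29 to 0.403 (median 0.0156), and those of other libraries from -0.49 to 0.429 (median -0.00459). These pairs mix all groups, so they cannot show a pairing limited to cumulus and mural libraries of the same time. The replicate block gave 3 and 4 members called at 4 h in cumulus and mural cells, as without it, and 49 in place of 48 pathway genes in cumulus cells at 12 h. At 0 h, Pdcd1, Vsir and Tgm2 had too few counts in cumulus cells for a precise baseline.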
